A study of Mus musculus with 20 samples.

Results

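Interferon-stimulated genes are the genes that cells switch on when interferon binds its receptor, and 38 of them, chosen by name, were followed here across every array of the series. Probes were assigned to them by accession. Of the 38 genes, 35 had a probe and 33 were measured, out of 18738 genes measured in all. Oas1b, Mx1 and Mx2 had no probe by accession. Oas3 and Ifi44 each had 1 probe, which was above background on at most 1 array. Of the 33 measured genes, 30 were above background on all 20 arrays. Irf7 was above background on 12 arrays, Oas2 on 7 and Oasl2 on 17.

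Total RNA came from a murine B16 line, a melanoma line, that carries Bcr-Abl, a fusion kinase, and this line is shared by all groups. The strain is labelled mouse C3H eOuJ. Cells were transfected with plasmids for p65/RelA, a subunit of the transcription factor NF-kB: the wild-type protein (WT, 3 arrays), D361E, described in the design as resistant to cleavage (3 arrays), residues 362 to 549 (C-fragment, 3 arrays), residues 1 to 361 (N-fragment, 3 arrays), both fragments together (N+C, 5 arrays, numbered 16 to 20) or a void plasmid (3 arrays, titled Blanck). The labels name no promoter, clone, time after transfection or source of the replicates, so a p-value here covers the spread among these arrays, which may be technical. In total RNA from a culture, fewer expressing cells and less RNA per cell cannot be told apart.

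Type I, II and III interferons signal through receptor-bound JAK kinases to STAT proteins. A complex of STAT proteins with IRF9 binds the interferon-stimulated response element (ISRE) in the promoters of these genes, and STAT dimers bind the gamma-activated site (GAS). The products block viral RNA and protein synthesis, sense foreign nucleic acid or feed back on the pathway, and NF-kB takes part in inducing interferon beta as well as some of the genes themselves.

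The promoter windows of RefSeq (GRCm38.p6), 250 bases before to 50 after a start site, were searched on both strands for the ISRE core GAAANNGAAA, the GAS TTCNNNGAA and the kB consensus. Of the 38 genes, 27 had a window, with 33 windows between them. The ISRE core was in 39.4% of these windows (13 of 33, in 13 genes), against 3.44% of all 32851 windows. The GAS was in 21.2% (7 of 33), against 8.30% of all windows. The kB consensus was in 9.09% (3 of 33), against 4.51% of all windows. Its matches lay at Oasl1, Irf1 and Bst2. Matches can overlap each other, and a match is a description of letters only.

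The last 160 bases before the start site are shown for genes on which the results turn, written in the direction of transcription with motif matches, on either strand, in capitals. The first group rose with the N-fragment. Its ISRE cores begin at -104 and -85 in Ifit1, at -156 and -122 in Ifit3, at -78, -72 and -66 in Isg15, at -59 in Gbp2 and at -45 and -39 in Gbp3. Oasl1 holds no ISRE core in this stretch. Its capitals are a kB consensus at -14.
Ifit1 (chr19:34640729-34640888, plus strand): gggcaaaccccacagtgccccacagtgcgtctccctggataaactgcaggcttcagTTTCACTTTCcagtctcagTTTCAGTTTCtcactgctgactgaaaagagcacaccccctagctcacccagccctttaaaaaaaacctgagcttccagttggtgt
Ifit3 (chr19:34583369-34583528, plus strand): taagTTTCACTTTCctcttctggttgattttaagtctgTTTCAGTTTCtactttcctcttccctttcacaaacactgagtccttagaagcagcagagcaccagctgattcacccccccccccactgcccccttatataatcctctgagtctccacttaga
Isg15 (chr4:156200819-156200978, minus strand): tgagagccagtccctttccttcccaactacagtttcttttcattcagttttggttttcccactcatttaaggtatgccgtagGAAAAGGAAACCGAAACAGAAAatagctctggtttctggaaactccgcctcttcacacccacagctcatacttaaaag
Gbp2 (chr3:142620503-142620662, plus strand): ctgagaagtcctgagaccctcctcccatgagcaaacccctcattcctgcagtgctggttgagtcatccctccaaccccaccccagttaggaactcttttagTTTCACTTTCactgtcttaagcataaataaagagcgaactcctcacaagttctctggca
Gbp3 (chr3:142559884-142560043, plus strand): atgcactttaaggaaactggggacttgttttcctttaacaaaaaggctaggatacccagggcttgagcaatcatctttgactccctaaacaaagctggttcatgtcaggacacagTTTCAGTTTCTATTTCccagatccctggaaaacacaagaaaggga
Oasl1 (chr5:114923080-114923239, plus strand): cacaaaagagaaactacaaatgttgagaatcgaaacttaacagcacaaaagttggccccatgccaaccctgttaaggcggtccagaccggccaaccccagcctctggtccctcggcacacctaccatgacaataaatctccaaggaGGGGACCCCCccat

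Rsad2 and Oas1a are shown because they differed most between the N+C arrays. In Rsad2 the ISRE core begins at -120. In Oas1a overlapping ISRE cores begin at -20 and -14 and a GAS at -98. So an ISRE core was present in genes that moved in opposite directions with the N-fragment, Gbp2 and Rsad2 among them.
Rsad2 (chr12:26456453-26456612, minus strand): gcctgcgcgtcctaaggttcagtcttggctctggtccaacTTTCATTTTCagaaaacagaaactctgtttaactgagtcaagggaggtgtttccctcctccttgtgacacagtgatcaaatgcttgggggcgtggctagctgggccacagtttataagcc
Oas1a (chr5:120907526-120907685, minus strand): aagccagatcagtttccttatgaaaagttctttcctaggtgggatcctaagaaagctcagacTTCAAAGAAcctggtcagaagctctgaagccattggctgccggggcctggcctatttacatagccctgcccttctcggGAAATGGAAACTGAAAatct

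Levels are given as a percentage of the array's 75th percentile intensity (P75), and differences as log2 values from limma, with their standard error (SE) and a p-value adjusted over all 18738 genes. A gene was called higher or lower at an adjusted p under 0.05. Levels of different genes come from different probes and are not compared. Each of 7 melanocyte markers was detected throughout the 20 arrays. Among macrophage and leukocyte markers Ptprc and Adgre1 were above background on none, Csf1r and Itgam on all 20, Cd14 on 12 and Lyz2 on 2. The summed level of these 6 leukocyte markers was 240 to 313% of P75 with WT, 181 to 311% with D361E, 266 to 329% with the C-fragment, 178 to 235% with the N-fragment, 164 to 309% with N+C and 248 to 506% with void. Of 4 plasmacytoid dendritic cell markers, Siglech, Tcf4 and Bst2, which is also an interferon-stimulated gene of the 38, were on all 20 and Irf8 on 2, with a sum of 4920 to 6190% over the constructs, against 5308 to 6269% with void. Of the T and NK cell markers Cd3e was on all 20 arrays and Cd3g on none, and of the endothelial markers Pecam1 and Kdr were on all 20 and Cdh5 on none. Of the fibroblast markers Col1a2 was on all 20, Pdgfra on 16 and Dcn and Lum on none. The fibroblast sum was 100.1 to 112% of P75 with WT, 113 to 153% with D361E, 62.0 to 67.2% with the C-fragment, 230 to 297% with the N-fragment and 16.7 to 48.6% with N+C, against 124 to 159% with void. The part of these markers in the results was not tested. Rela, read by a probe whose place relative to the fragments is not given here, was above background on all 20 arrays and was 2095 to 2573% of P75 with the N-fragment, against 1760 to 1826% with void (log2 0.36, adjusted p = 0.00089).

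The 5 N+C arrays did not form 1 group for these genes. In arrays 16 to 18, 26 of 33 genes were below and 1 gene, Samd9l, was above both arrays 19 and 20. Of all genes 29.7% were below and 31.1% above in this way. The median within-group SD of the 33 genes was 0.37 log2 units with N+C and 0.06 to 0.17 in the other groups. Over all genes it was also largest with N+C, at 0.21, against 0.08 to 0.16 in the other groups. No label separates these arrays, and they lay across 4 of the 5 slides. The split was seen in the arrays' own values, so values of the 2 sets are a description, and the counts of called members in each comparison are also given with the sets as separate groups (7 groups in the fit). The shared spread is smaller in that fit, which calls more genes in every comparison of the other groups. The split followed these values, so adjusted p-values and calls from that fit are descriptive. They add none to the calls of the 6 groups, here and wherever values of that fit or of either set are given below.

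**Figure D1:**
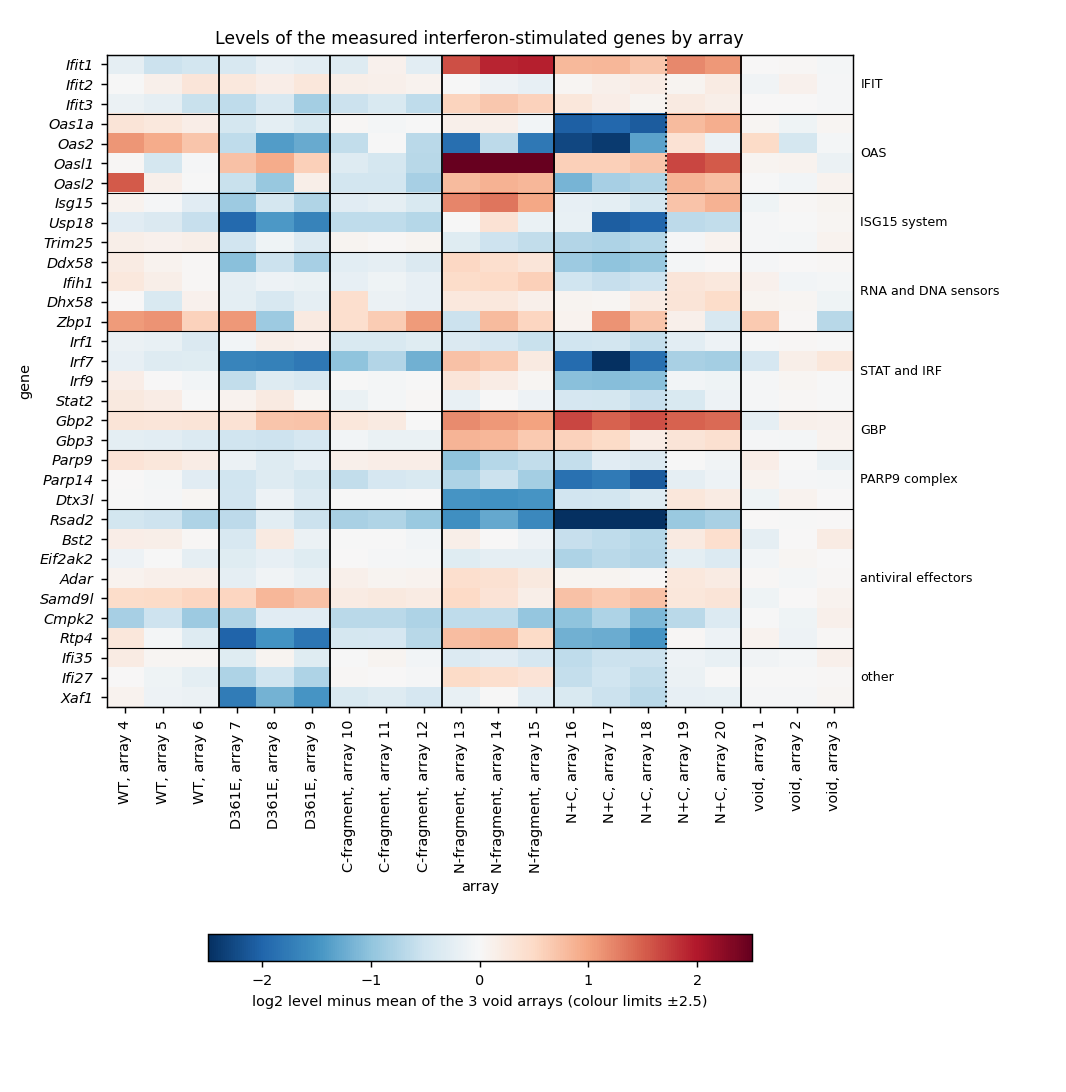
Log2 level of each of the 33 measured genes (rows, in 9 subsets) on each of the 20 arrays (columns), relative to the mean of the 3 void arrays; red is higher and blue lower, with colours limited at ±2.5, and values of Irf7, Oas2 and Oasl2 include arrays not above background. The N-fragment arrays are red for Ifit1, Oasl1, Isg15, Gbp2 and Gbp3 and blue for Dtx3l and Rsad2, the D361E arrays are blue for Usp18, Irf7, Rtp4 and Xaf1, and N+C arrays 16 to 18 differ from arrays 19 and 20, which a dotted line sets apart.

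With the N-fragment, 8 genes rose (Ifit1, Ifit3, Oasl1, Isg15, Gbp2, Gbp3, Adar and Ifi27) and 5 fell (Irf1, Parp9, Dtx3l, Rsad2 and Cmpk2) against void. Of all genes 13.2% rose and 17.9% fell. The median difference of the 33 genes was 0.18 and that of all genes -0.06. Splitting N+C gave 13 higher and 10 lower (16.9% and 23.1% of all genes). None of the 13 genes had N-fragment values that overlapped those of void. They were called on these same arrays, so this adds no support to the calls. The calls of Rsad2 and Ifi27 were lost when any 1 of the 6 arrays of these groups was left out (adjusted p of 0.0559 to 0.0856 for Rsad2 and 0.0502 to 0.0866 for Ifi27).

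With D361E, 2 genes rose (Gbp2 and Samd9l) and 8 fell (Ifit3, Usp18, Ddx58, Irf7, Gbp3, Rtp4, Ifi27 and Xaf1) against void, while 6.04% of all genes rose and 7.44% fell. The median difference of the 33 genes was -0.32 and that of all genes -0.04. Splitting N+C gave 4 higher and 19 lower (10.2% and 12.5% of all genes). Of these calls, that of Ddx58 was lost without any of 5 single arrays of these groups (adjusted p of 0.0719 to 0.125).

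With WT, 1 gene rose (Samd9l) and 2 fell (Gbp3 and Cmpk2) against void, where 3.22% of all genes rose and 6.16% fell. In the fit with N+C split 2 were higher and 5 lower (6.49% and 11.8% of all genes). With the C-fragment, 0 genes rose and 3 fell (Ifit3, Irf1 and Cmpk2), where 4.88% of all genes rose and 8.25% fell. Splitting N+C gave 0 higher and 10 lower (8.94% and 14.4% of all genes). By limma at an unadjusted p under 0.05, 7 of the 33 genes differed with WT and 5 with the C-fragment, where 23.1% and 26.7% of all genes did. The WT count rests on single arrays: leaving out any 1 void or WT array gave 0 or 1 call. Calls over all genes also fell in these fits, to between 941 and 1722, against 1759 with all arrays. The C-fragment count was 1 without void array 3 or without the third C-fragment array. Without void array 3, 1516 of all genes were called, against 2460 with all arrays.

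With N+C, 5 genes rose (Ifit1, Oasl1, Gbp2, Gbp3 and Samd9l) and 12 fell (Usp18, Irf1, Irf7, Irf9, Stat2, Parp14, Rsad2, Eif2ak2, Cmpk2, Ifi35, Ifi27 and Xaf1) against void, while 11.8% of all genes rose and 12.8% fell. From arrays 16 to 18 alone 5 genes were higher and 22 lower (16% and 18.4% of all genes). From arrays 19 and 20 alone 10 were higher and 4 lower (15% and 15.1% of all genes). Without void array 3 the count over all 5 N+C arrays was 11. The calls of Usp18, Irf9, Parp14, Ifi35, Ifi27 and Xaf1 were each lost when some single arrays were left out (adjusted p of 0.0514 to 0.0934). The 5 comparisons share the void arrays. Over them 24 of the 33 genes were called at least once, 6 of them only higher, 15 only lower and 3 in both directions (Ifit3, Gbp3 and Ifi27), and 9 genes were called in none. Of all genes 45.3% were called at least once, 18.1% only higher, 24.2% only lower and 3.06% in both directions.

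The IFIT proteins bind foreign RNA and block its translation. Ifit1 was at 14.7, 18.2 and 18.5% of P75 with the N-fragment and at 8.47, 8.63, 7.80, 11.1 and 10.2% with N+C, against 4.90, 4.95 and 4.66% with void. Its 3 N-fragment arrays lay above every other array, and all 5 N+C arrays lay between them and void. WT arrays were at 4.16, 3.34 and 3.53%, D361E at 3.68, 4.21 and 4.01% and C-fragment at 3.87, 5.17 and 4.00%. Ifit1 rose 3.53-fold with the N-fragment (log2 1.82, SE 0.14, adjusted p = 7.63e-08) and 1.89-fold with N+C (log2 0.92, SE 0.13, adjusted p = 5.96e-05).

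Ifit3, which partners IFIT1 in humans, was at 43.8, 47.4 and 44.5% of P75 with the N-fragment, against 30.2, 30.0 and 29.4% with void. It was at 19.3, 22.5 and 16.6% with D361E and at 20.6, 23.0 and 19.3% with the C-fragment, below every void array. WT was at 26.9, 25.7 and 20.4%, and N+C at 36.4, 33.7, 31.4, 34.7 and 33.1%. Ifit3 rose 1.51-fold with the N-fragment (adjusted p = 0.000614) and fell by 0.63 on the log2 scale with D361E (SE 0.11, adjusted p = 0.0012) and by 0.51 with the C-fragment (adjusted p = 0.00629). Its probe may also read the closely related Ifit3b. Ifit2, whose gene lies next to Ifit3, was not called against void in any group (log2 -0.12 to 0.24).

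The OAS enzymes make the second messenger that activates RNase L. Oasl1, an OAS-like protein that lacks this activity and in mice inhibits translation of Irf7, was at 41.2, 38.4 and 36.9% of P75 with the N-fragment, against 4.40, 4.45 and 3.78% with void. It was the member that rose most: 9.25-fold (log2 3.21, SE 0.25, adjusted p = 1.06e-07). With N+C it was at 6.33, 6.36, 6.79, 13.3 and 12.1%, above void and far below the N-fragment arrays (2.02-fold over void, adjusted p = 0.00371). D361E was at 7.02, 8.02 and 6.34%, WT at 4.31, 3.09 and 4.10% and C-fragment at 3.34, 3.11 and 2.58%. The D361E arrays all lay above void, with log2 0.76 and adjusted p = 0.0615, and adjusted p = 0.000472 with N+C as separate sets.

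Oasl2, the neighbouring gene of Oasl1, was at 6.11, 6.39 and 6.21% of P75 with the N-fragment, against 3.47, 3.35 and 3.71% with void, and was not called (log2 0.83, adjusted p = 0.239). Its WT arrays, at 10.1, 3.85 and 3.50%, spread widely. Oas1a, given because of its N+C values and chosen after they were seen, was at 320 to 366% with the N-fragment against 311 to 347% with void and was called in no group. With N+C as separate sets it was called higher with WT (log2 0.25, adjusted p = 0.0229) and lower with D361E (log2 -0.35, adjusted p = 0.00206). Both calls are descriptive only. From arrays 16 to 18 it lay below void (log2 -2.03) and from arrays 19 and 20 above (log2 0.85). No p-value is given for these 2 differences, because Oas1a was chosen for the values behind them. Oas2 was above background on all 3 WT arrays and on 1 of 3 void arrays, and was not called against void.

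The ISG15 system joins a ubiquitin-like protein to others and removes it again. Isg15, the ubiquitin-like protein, was at 638, 684 and 534% of P75 with the N-fragment, against 254, 277 and 287% with void (2.26-fold, log2 1.18, SE 0.27, adjusted p = 0.0037). With N+C it was at 236, 230 and 202% on arrays 16 to 18 and at 445 and 495% on arrays 19 and 20. D361E was at 144, 200 and 162%, WT at 290, 266 and 225% and C-fragment at 225, 232 and 208%. All 3 D361E arrays lay below void (log2 -0.70, adjusted p = 0.112, and 0.000789 with N+C as separate sets). Its second probe gave 1.21 in place of 1.18 for the N-fragment.

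Usp18, which removes ISG15 and damps receptor signalling, was at 5.37, 7.61 and 6.43% of P75 with D361E, against 20.1, 20.3 and 21.2% with void (log2 -1.68, SE 0.38, adjusted p = 0.00701). With the N-fragment it was at 20.4, 26.4 and 18.3%, which overlapped void. WT was at 16.9, 16.1 and 13.7% and C-fragment at 13.3, 13.2 and 12.5%. With N+C it was at 17.9, 4.89 and 5.20% on arrays 16 to 18, where array 16 stood apart, and at 13.0 and 13.4% on arrays 19 and 20. Trim25, a ubiquitin ligase for RIG-I, was not called against void. With N+C as separate sets it was called lower with the N-fragment (log2 -0.48, adjusted p = 0.000429), with D361E (log2 -0.31, adjusted p = 0.0172) and from N+C arrays 16 to 18 (log2 -0.74, adjusted p = 8.31e-06). Calls of Trim25 from that fit are descriptive only.

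Of the 4 nucleic acid sensors 1 was called against void, in 1 group, with all 20 arrays in 6 groups. Ddx58, which encodes RIG-I, was at 50.9, 72.4 and 58.8% of P75 with D361E, against 102, 105 and 107% with void (log2 -0.80, SE 0.24, adjusted p = 0.0333, and 0.0620 and 0.0794 with no filter on dim probes and with no scaling). With the N-fragment it was at 149, 139 and 128%, above every void array but not called (log2 0.41, adjusted p = 0.217, and 0.00353 with N+C as separate sets). N+C arrays 16 to 18 were at 55.7, 51.7 and 53.9%, and arrays 19 and 20 at 101 and 106%. Ddx58 was called lower from arrays 16 to 18 alone (log2 -0.96, adjusted p = 1.74e-06). Ifih1, Dhx58 and Zbp1 were called in no comparison with void in the 6 groups. With N+C as separate sets Ifih1 was called higher with the N-fragment (log2 0.52, adjusted p = 8.85e-06), lower from arrays 16 to 18 (log2 -0.53, adjusted p = 7.82e-06) and higher from arrays 19 and 20 (log2 0.28, adjusted p = 0.00667). All values of Ddx58 and Ifih1 from the separate sets are descriptive, because the split followed the values of these genes. In the 6 groups, with the N-fragment the differences of all 4 sensors were above 0 (0.22 to 0.52).

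Among the STAT and IRF genes, which carry the signal to the promoters, all 4 were called lower with N+C over its 5 arrays. From arrays 19 and 20 alone only Irf7 was (log2 -0.83, adjusted p = 0.00957), and the calls of Irf1 (log2 -0.20, adjusted p = 0.0795), Stat2 (log2 -0.25, adjusted p = 0.0601) and Irf9 were lost. Irf7, which amplifies type I interferon production, was at 1.32, 1.29 and 1.20% of P75 with D361E, against 3.09, 4.61 and 5.04% with void. No D361E array was above background, so Irf7 was at least 2.56-fold lower (adjusted p = 0.00324). With N+C it was above background on 2 of 5 arrays, at 1.09, 0.737, 1.14, 2.37 and 2.32% (log2 -1.59, adjusted p = 0.00133). N-fragment arrays were at 6.86, 6.50 and 4.84% and were not called (adjusted p = 0.282, and 0.0423 with N+C as separate sets).

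Irf9, the DNA-binding part of the complex it forms with STAT proteins, was at 49.5, 49.2 and 49.6% of P75 on N+C arrays 16 to 18 and at 98.0 and 94.9% on arrays 19 and 20, against 100, 106 and 102% with void. Its call with N+C (log2 -0.67, adjusted p = 0.0281) was lost from arrays 19 and 20 alone, where the difference was -0.09 (adjusted p = 0.484). Irf1, an early target of interferon and NF-kB, was at 236, 226 and 206% with the N-fragment and at 234, 233 and 245% with the C-fragment, against 302, 308 and 301% with void. Both were called lower (log2 -0.45, adjusted p = 0.00319, and log2 -0.35, adjusted p = 0.0315). D361E was at 290, 337 and 328%, which overlapped void. On unscaled intensities both calls of Irf1 were lost (log2 -0.11 with the N-fragment and -0.12 with the C-fragment), and the C-fragment call was lost without any 1 of the 6 arrays (adjusted p of 0.0577 to 0.0986) and with slide as a block (adjusted p = 0.126).

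The guanylate-binding proteins attack vacuoles of pathogens and are induced mainly by interferon gamma. Gbp2 was at 60.8, 56.2 and 53.8% of P75 with the N-fragment and at 84.8, 74.5, 81.2, 74.6 and 70.7% with N+C, against 22.7, 29.2 and 28.6% with void. All 5 N+C arrays lay above the N-fragment arrays, which lay above void. D361E was at 34.1, 42.8 and 43.5%, WT at 33.1, 32.8 and 33.2% and C-fragment at 32.5, 31.2 and 26.5%. Gbp2 rose 2.13-fold with the N-fragment (log2 1.09, SE 0.11, adjusted p = 2.16e-06), 2.89-fold with N+C (adjusted p = 3.31e-08) and by 0.58 on the log2 scale with D361E (adjusted p = 0.00249).

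Gbp3, which lies 1 coding gene from Gbp2, was at 30.6, 30.4 and 26.9% of P75 with the N-fragment and at 25.6, 23.8, 19.4, 21.4 and 22.4% with N+C, against 16.8, 16.4 and 18.0% with void. It rose 1.72-fold with the N-fragment (adjusted p = 3.99e-06) and 1.32-fold with N+C (adjusted p = 0.00132). With D361E it was at 12.0, 12.0 and 12.7% (log2 -0.48, adjusted p = 0.00136) and with WT at 14.3, 14.1 and 13.4% (log2 -0.29, adjusted p = 0.0439). The GBP pair rose together with the N-fragment and N+C and differed in direction with D361E. By limma the D361E call of Gbp2 was lost in a fit of the 2 groups alone (log2 0.58, adjusted p = 0.0846). That of Gbp3 was lost on unscaled intensities (log2 -0.33, adjusted p = 0.109), and both signs stayed. The WT call of Gbp3 was lost under 6 of the other settings and its sign turned on unscaled intensities (log2 0.11).

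**Figure D2:**
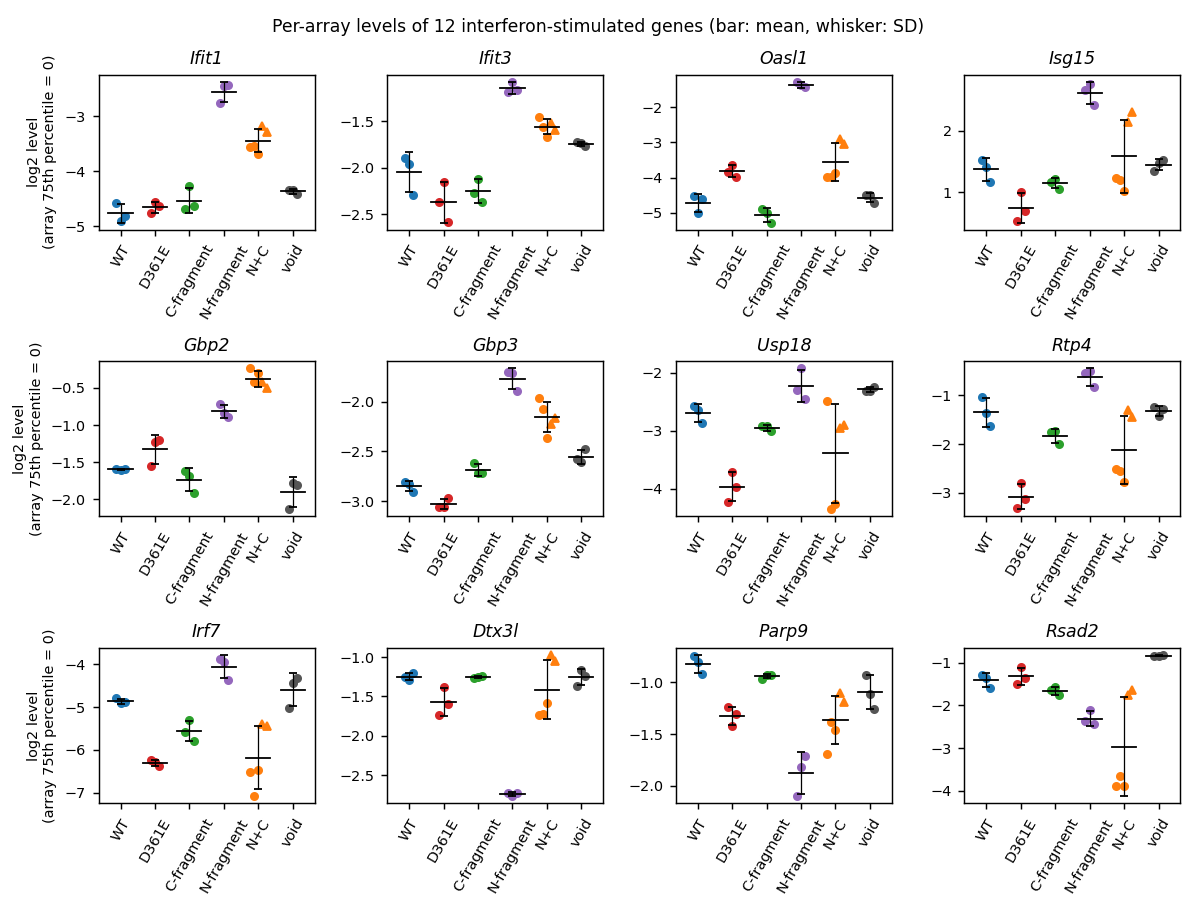
Log2 level (array P75 at 0) of 12 genes on each array, by group, with void at the right; points are arrays, triangles N+C arrays 19 and 20, bars group means and whiskers SD. Ifit1, Ifit3, Oasl1, Isg15 and Gbp3 are highest with the N-fragment, Dtx3l and Parp9 are lowest there, and Usp18, Rtp4 and Irf7 are low with D361E; the Irf7 values with D361E are not above background.

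PARP9 and DTX3L act as a pair, an ADP-ribosyltransferase-like protein and a ubiquitin ligase, and their genes overlap in the annotation. Dtx3l was at 15.2, 14.7 and 15.1% of P75 with the N-fragment, against 38.9, 44.8 and 42.2% with void (log2 -1.48, SE 0.17, adjusted p = 6.46e-06). Parp9 was at 23.3, 28.4 and 30.6% with the N-fragment, against 52.7, 46.4 and 41.9% with void (log2 -0.78, adjusted p = 0.000314). The pair thus fell where Ifit1, Oasl1 and Isg15 rose. With WT and the C-fragment neither gene was called.

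With N+C, Dtx3l was at 29.9, 30.4, 33.5, 50.8 and 48.2% of P75 and Parp9 at 30.9, 38.4, 36.3, 46.5 and 43.8%, and neither was called against void. From arrays 19 and 20 alone Dtx3l was higher (log2 0.24, adjusted p = 0.0489), and from arrays 16 to 18 both were lower (log2 -0.42 for each). Such values of the sets are descriptive only. Parp14, a related mono-ADP-ribosyltransferase 1 coding gene from Parp9, was at 9.11, 9.70 and 7.85% on N+C arrays 16 to 18 and at 28.5 and 30.4% on arrays 19 and 20, against 35.2, 32.4 and 32.2% with void. Its call with N+C (log2 -1.22, adjusted p = 0.0226) was lost from arrays 19 and 20 alone (log2 -0.18, adjusted p = 0.275). With the N-fragment Parp14 was at 19.5, 22.8 and 18.5%, below every void array (log2 -0.72, adjusted p = 0.208, and 4.47e-05 with N+C as separate sets).

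Among the antiviral effectors Rsad2 and Cmpk2 are neighbours. Rsad2, which encodes viperin, was at 19.3, 23.0 and 18.4% of P75 with the N-fragment, against 56.3, 56.0 and 56.4% with void (log2 -1.48, SE 0.49, adjusted p = 0.0319, and 0.0811 with slide as a block). With N+C it was at 6.74, 7.95 and 6.71% on arrays 16 to 18 and at 29.4 and 32.3% on arrays 19 and 20 (log2 -2.14, adjusted p = 0.0021). WT was at 41.0, 39.4 and 32.9%, D361E at 35.6, 46.7 and 38.8% and C-fragment at 32.2, 33.5 and 29.6%. Every construct array lay below every void array.

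Cmpk2, a mitochondrial nucleotide kinase, was at 18.9, 23.3 and 17.8% of P75 with WT and at 21.4, 21.6 and 17.1% with the N-fragment, against 33.0, 31.0 and 36.4% with void. C-fragment arrays were at 21.0, 21.0 and 19.7%, D361E at 19.9, 27.4 and 27.4% and N+C at 16.7, 19.6, 15.4, 21.1 and 26.4%. It fell with WT, the N-fragment, the C-fragment and N+C (log2 -0.75, -0.74, -0.70 and -0.78) and was not called with D361E (log2 -0.44, adjusted p = 0.124, and 0.0438 with N+C as separate sets). Here too no construct array reached the void arrays. On unscaled intensities the calls with WT, the N-fragment and the C-fragment were lost, and with slide as a block those with WT (log2 -0.55, adjusted p = 0.0544) and the C-fragment (log2 -0.50, adjusted p = 0.0632).

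Rtp4, a chaperone of receptors and inhibitor of viral replication, was at 10.0, 14.4 and 11.5% of P75 with D361E, against 42.7, 37.1 and 41.2% with void (log2 -1.77, SE 0.32, adjusted p = 0.00157). With the N-fragment it was at 68.6, 70.8 and 56.4%, above every void array but not called (log2 0.69, adjusted p = 0.124, and 0.00234 with N+C as separate sets). N+C arrays 16 to 18 were at 17.6, 17.0 and 14.5% and arrays 19 and 20 at 41.0 and 37.0%. Of the other effectors, Samd9l rose with WT, D361E and N+C (log2 0.49, 0.70 and 0.55), Eif2ak2, the kinase PKR, fell with N+C (log2 -0.55), and Bst2 was called in no group. Adar, the RNA-editing enzyme, rose with the N-fragment by its brighter probe (log2 0.35), while its second probe gave -0.01.

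Xaf1, a partner of the inhibitor of apoptosis XIAP, was at 8.76, 13.0 and 10.6% of P75 with D361E, against 29.0, 29.1 and 30.7% with void (log2 -1.47, SE 0.14, adjusted p = 2.66e-06). All other groups lay between 18.6 and 31.3%. Ifi27, a mitochondrial and nuclear envelope protein, was at 2937, 2809 and 2672% with the N-fragment and at 1238, 1489 and 1243% with D361E, against 2099, 2085 and 2152% with void. It rose with the N-fragment (log2 0.41, adjusted p = 0.0316) and fell with D361E (log2 -0.68, adjusted p = 0.00311). Ifi35, a binding partner of NMI, was at 102, 109, 108, 143 and 138% with N+C, against 148, 152 and 172% with void (log2 -0.40, adjusted p = 0.0183, and 0.272 from arrays 19 and 20).

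Against WT, 7 genes were lower with D361E (Ddx58, Irf7, Parp9, Adar, Rtp4, Ifi27 and Xaf1) and 0 higher, where 1.79% of all genes fell and 2.42% rose. Splitting N+C gave 2 higher and 15 lower (6.12% and 4.41% of all genes). Rtp4 and Xaf1 had the lowest adjusted p, with log2 -1.74 (adjusted p = 0.00431) and -1.41 (adjusted p = 1.42e-05). Of the 33 genes 25 had a difference below 0, with a median of -0.32, against 0.01 over all genes. Leaving out single arrays of either group gave 2 to 6 calls, and the calls of Ddx58, Irf7, Parp9, Adar and Ifi27 were each lost in some of these fits (adjusted p of 0.0508 to 0.175 over all arrays left out). Adar's second probe gave -0.07 where the brighter gave -0.28, and its call was lost with the mean of its probes (adjusted p = 0.0716).

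Against WT, 8 genes were higher with the N-fragment (Ifit1, Ifit3, Oasl1, Isg15, Gbp2, Gbp3, Adar and Ifi27) and 6 lower (Ifit2, Oas2, Trim25, Parp9, Dtx3l and Ifi35), where 13.8% of all genes rose and 13.5% fell. Splitting N+C gave 12 higher and 10 lower (18.2% and 18.1% of all genes). Oasl1 was 10.2-fold higher (log2 3.36, SE 0.25, adjusted p = 7.12e-08) and Ifit1 4.65-fold (log2 2.22, adjusted p = 8.27e-09). Oas2, on no N-fragment array above background, was at least 1.93-fold lower (adjusted p = 0.0073). The calls of Ifit2, Trim25, Adar and Ifi35 were lost when some single arrays were left out (adjusted p of 0.0590 to 0.128). For Adar the second probe gave 0.02 where the brighter gave 0.23, and the mean of its probes lost the call (adjusted p = 0.0773).

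Between the C-fragment and WT limma called 0 of the 33 genes, where 2.09% of all genes were higher and 2.35% lower. At an unadjusted p under 0.05, 4 genes differed, where 16.2% of all genes did. Splitting N+C gave 0 higher and 7 lower (5.77% and 5.72% of all genes), and a fit of these 2 groups alone called 6, with the share of all genes not given here. With all 20 arrays in 6 groups the smallest adjusted p was 0.261.

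The N+C arrays were also set against those of the N-fragment alone. With N+C 15 genes were lower and 4 higher (Ifit2, Gbp2, Parp9 and Dtx3l), where 9.52% of all genes were lower and 12.6% higher. From arrays 16 to 18 alone, 22 were lower and 5 higher (15.7% and 17.8% of all genes), and from arrays 19 and 20 alone 10 and 10 (10.9% and 16.2% of all genes). Oasl1 was lower (log2 -2.19, SE 0.23, adjusted p = 3.98e-06), as were Ifit1 (log2 -0.90, adjusted p = 7.55e-05), Isg15 (log2 -1.04, adjusted p = 0.00593) and Irf7 (log2 -2.12, adjusted p = 0.000114). Dtx3l was 2.51-fold higher (adjusted p = 1.1e-05) and Gbp2 1.35-fold (adjusted p = 0.00513). The calls of Ifit2, Usp18, Stat2, Eif2ak2 and Adar were lost when some single arrays were left out (for Eif2ak2, 18 of the 20, with an adjusted p of 0.0515 to 0.137). The second Adar probe gave 0.005 where the brighter gave -0.22. From arrays 19 and 20 alone Oasl1 and Ifit1 were still lower (log2 -1.61 and -0.68) and Isg15 was not called (log2 -0.39, adjusted p = 0.0517).

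Between the sets of N+C arrays, 8 of the 33 genes were lower on arrays 16 to 18 by at least 2-fold with no overlap and 0 were higher, where 3.6% of all genes were lower and 4.86% higher by that rule. The rule uses measured values, also those not above background. The median difference was -0.50 for the 33 genes and 0.04 for all genes. Oas1a was at 81.4, 85.5 and 78.6% of P75 on arrays 16 to 18 and at 580 and 629% on arrays 19 and 20, a 7.38-fold difference, against 347, 311 and 347% with void. So arrays 16 to 18 lay below and arrays 19 and 20 above the void arrays for Oas1a. Its probe may also read other Oas1 copies, and its second probe gave -0.89 for N+C against void where the first gave -0.88.

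Rsad2 (4.33-fold), Parp14 (3.32-fold), Oas2, Oasl2, Irf7, Rtp4 (2.38-fold) and Isg15 (2.11-fold) were the other 7. Irf7 and Oas2 were above background on none of arrays 16 to 18, so they were at least 1.31-fold lower there, and a 2-fold difference rests on values below background. Oasl2 was above background on 1 of these arrays. Gbp2, Gbp3, Ifit2 and Ifit3 overlapped between the sets and differed by at most 1.10-fold. Against void the sets gave 0.78 and 1.14 for Ifit1 and 0.63 and 1.60 for Oasl1 on the log2 scale, both called higher from either set.

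**Figure D3:**
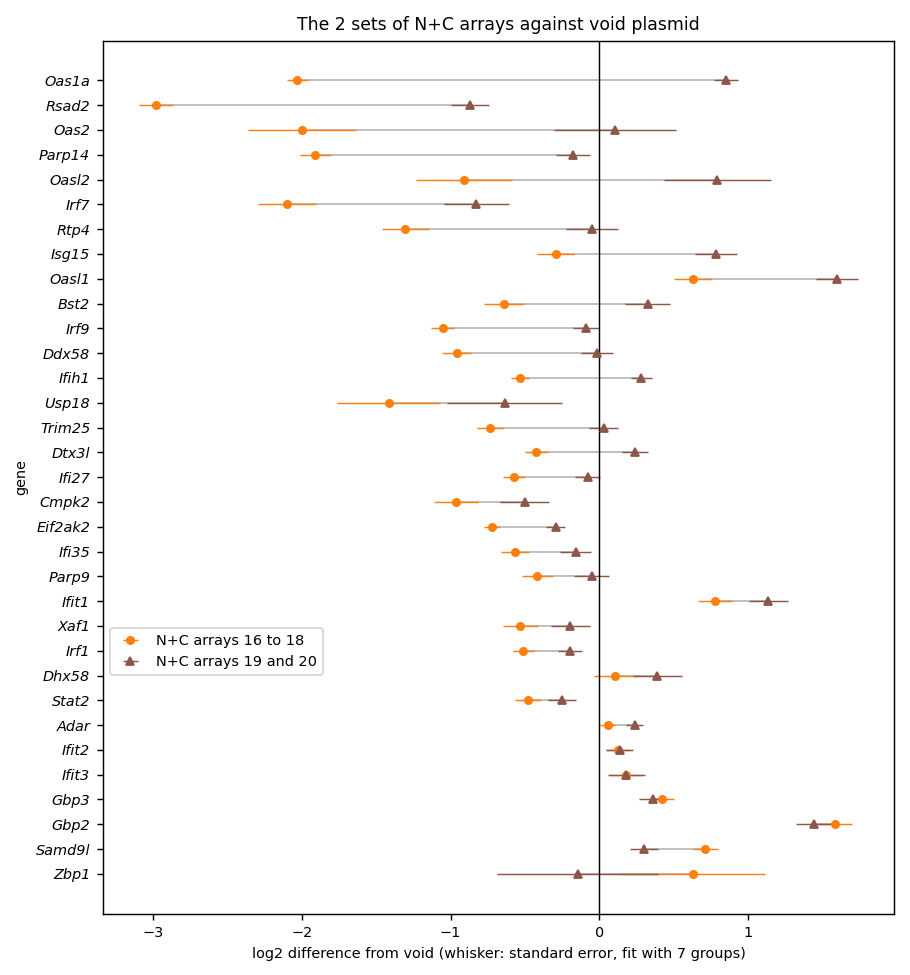
Log2 difference from void of each gene from N+C arrays 16 to 18 (circles) and from arrays 19 and 20 (triangles), with the standard error of the 7-group fit, ordered by the difference between the sets. Oas1a, at -2.03 and 0.85, and Rsad2, at -2.98 and -0.87, lie furthest apart, and both points of Gbp2, Gbp3, Ifit2 and Ifit3 lie close together.

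Upstream of these genes, the interferon ligands with a probe, other than Ifnl3, were above background on few arrays or none, and Ifnl2 had no probe. Ifnb1, Ifna4 and Ifng were above background on no array, Ifna2 on at most 4, and Ifnl3 was on all 20 without being called against void. Of 6 receptor chains 5 fell with the N-fragment, 3 with N+C, 1 each with D361E and the C-fragment and 0 with WT. Of all genes 17.9%, 12.8%, 7.44%, 8.25% and 6.16% fell in these comparisons, in that order. Among the 5 that fell with the N-fragment, Ifnar1, Ifnar2, Il10rb and Ifngr2 lie near each other on chromosome 16. From N+C arrays 16 to 18 alone 5 receptor chains were called lower (18.4% of all genes). From arrays 19 and 20 alone 3 were lower and 2 higher (15.1% and 15% of all genes). Ifnlr1, the lambda receptor chain, was at 6.08, 7.38 and 6.77% of P75 with the N-fragment, against 25.9, 25.4 and 22.6% with void (log2 -1.87, SE 0.44, adjusted p = 0.00383). Il10rb, its partner chain, was at 169, 165 and 168%, against 424, 423 and 442% with void (log2 -1.36, SE 0.08, adjusted p = 6.35e-09). These arrays are the ones on which Ifit1, Oasl1 and Isg15 were highest. Low Ifnlr1 was not particular to them: with D361E it was at 7.32, 5.89 and 6.31%, and Il10rb at 345.5, 426.5 and 372.8%. On the D361E arrays Ifit1 and Isg15 lay below void and Oasl1 above. For Ifngr2, the flagged spot of 1 N-fragment array was left out, so its call rests on 2 arrays of that group.

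Of 4 kinases and STATs, Jak1, a kinase shared by the receptor types, fell with every construct (log2 -0.51 with WT, -0.48 with D361E, -0.56 with the C-fragment, -0.34 with the N-fragment and -0.20 with N+C), and Jak2 rose with D361E (log2 0.27) and N+C (log2 0.25). Stat3 and Tyk2 were not called against void. Over 27 measured pathway genes 1 rose and 2 fell with WT (3.22% and 6.16% of all genes), 4 rose and 3 fell with D361E (6.04% and 7.44%), 0 rose and 3 fell with the C-fragment (4.88% and 8.25%), 1 rose and 12 fell with the N-fragment (13.2% and 17.9%), and 6 rose and 5 fell with N+C (11.8% and 12.8%). From N+C arrays 16 to 18 alone 7 were higher and 8 lower (16% and 18.4% of all genes), and from arrays 19 and 20 alone 8 higher and 4 lower (15% and 15.1%). Ptpn6, the phosphatase SHP-1 that dephosphorylates JAK and STAT proteins, fell with the N-fragment (log2 -1.42, adjusted p = 1.42e-06) and D361E (log2 -0.76, adjusted p = 0.00189). Socs3, a JAK inhibitor, rose with WT (log2 0.24) and D361E (log2 0.45) and fell with the N-fragment (log2 -0.43).

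**Figure D4:**
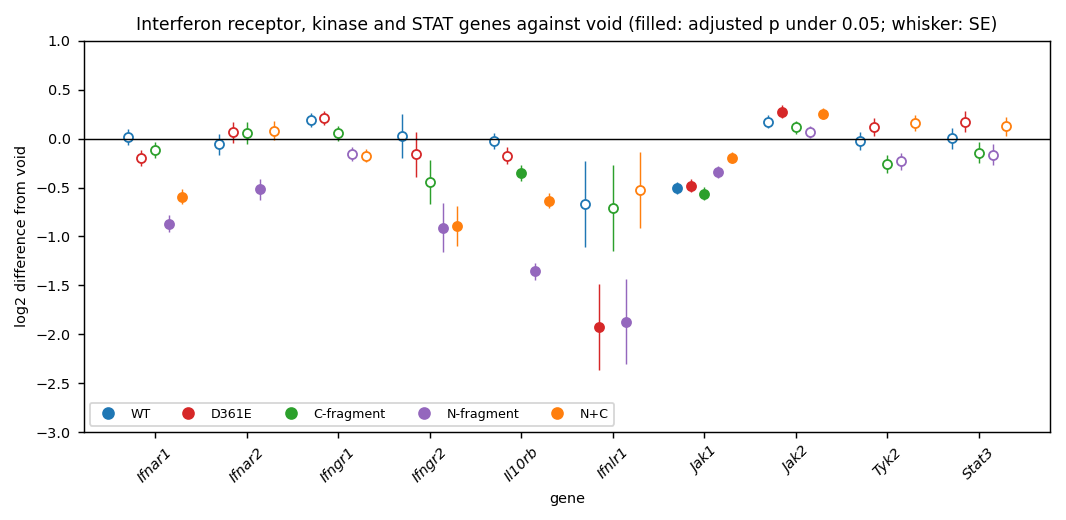
Log2 difference from void of 6 receptor, 3 kinase genes and Stat3 with each construct; whiskers are standard errors and filled points have an adjusted p under 0.05. The N-fragment points of Ifnar1, Ifnar2, Ifngr2, Il10rb and Ifnlr1 lie below 0 and are filled, and Jak1 lies below 0 with all 5 constructs.

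By subset, the 2 GBP genes were above 0 together with the N-fragment and N+C, the 3 PARP9 complex genes were below 0 together with D361E, the N-fragment and N+C, the 3 ISG15 system genes were below 0 together with D361E, the 4 sensors were above 0 together with the N-fragment, and the 4 STAT and IRF genes were below 0 together with the C-fragment and N+C. Against void, the 3 IFIT genes shared a sign only with N+C, and the 4 OAS genes only with the C-fragment. Both GBP genes were called with the N-fragment and N+C, and all 4 STAT and IRF genes with N+C. Other shared signs were mostly not calls. With the N-fragment 0 of 4 sensors and 2 of 3 PARP9 complex genes were called. With D361E 1 of 3 ISG15 system genes and 0 of 3 PARP9 complex genes were. Against void 44 to 46.7% of all genes were above 0, so 2 to 4 genes can share a sign without moving together. Read from N+C arrays 19 and 20 alone, the signs of the GBP, IFIT and STAT and IRF genes were as over the 5 arrays, while 1 of the 3 PARP9 complex genes, Dtx3l, was above 0 and all 4 OAS genes were above 0. By group mean, the N-fragment was highest for 14 of the 33 genes and lowest for 6, while D361E was highest for 3 and lowest for 11. N+C was highest for 2 and lowest for 10, and WT was highest for 9 and lowest for 1. Void was highest for 5 and lowest for 3, and the C-fragment was highest for 0 and lowest for 2. Shares over all genes were not computed, so these counts cannot be read as particular to the 33 genes.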

How the data were processed

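Agilent single-colour arrays of total RNA, labelled with Cy3, were read for 20 samples. The deposited intensity per spot (processed signal) was background-subtracted and detrended by the authors per the file headers, using the scanner vendor's software, Agilent Feature Extraction (version 10.7.3.1 per the submitters' processing notes). The deposited series table holds the same values.

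Here, outlier and control spots were dropped, intensities were taken to log2 and each array's 75th percentile was subtracted; these percentiles differed by up to 1.45-fold. A probe was kept if well above background on at least 3 of 20 arrays, and a gene was read by its brightest probe. RefSeq accessions named 28663 of 39429 probes. limma 3.58.1 in R 4.3.3 was fitted on all 20 arrays and 6 groups (14 residual degrees of freedom), with Benjamini-Hochberg adjustment over 18738 genes. No array had saturated spots among those used. Where a group had no array above background, folds are lower bounds against the lowest signal above background. The number of arrays limits the precision.

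Members and lists were chosen with earlier results of these data known. Up to 3 called members per subset with the largest difference from void were given in full, and the rest by counts. Alternatives were other normalizations, probe filters, probe means, fits of 2 groups, slide as a block, an intensity trend, N+C as separate sets, and each array left out. The normexp alternative used the median signal. The fit was tested on simulated data. One gene of the pathway list is not reported here.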

Additional observations from a re-analysis of the deposited data

How the results depend on the processing

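Of 86 calls, 58 were kept in every fit that left out 1 array, 28 were lost in some and 0 reversed. The other planned settings together kept 40, where N+C was also read from arrays 19 and 20 alone. Within slides holding both groups, 85 of 86 calls had the same sign on every slide, Stat2 in N+C against the N-fragment being the exception. These are the arrays that gave the calls, so the shared signs add no support to them. For WT, the N-fragment and the C-fragment against void and D361E against WT, only 1 slide held both groups. Leaving out 1 array gave 0 to 3 calls for WT against void, 9 to 12 for D361E, 11 to 19 for the N-fragment, 1 to 4 for the C-fragment and 11 to 22 for N+C, and 2 to 9 for D361E against WT, 11 to 15 for the N-fragment against WT and 14 to 20 for N+C against the N-fragment. With N+C as 2 groups the counts were 7 for WT against void, 23 for D361E, 23 for the N-fragment, 10 for the C-fragment and 27 for N+C arrays 16 to 18, and 17 for D361E, 22 for the N-fragment and 7 for the C-fragment against WT. With only the 2 groups compared they were 21 for the N-fragment (4711 of all 18738 genes), 10 for the C-fragment (2561 of all 18738 genes) and 6 for N+C against void, 6 for the C-fragment against WT and 7 for N+C against the N-fragment. Counts without a figure for all genes beside them cannot be set against all genes. Without scaling there were 8 calls for WT against void, all higher (39.6% of all genes were called higher and 1.35% lower), and 13 for D361E against WT (0.694% of all genes higher and 6.8% lower). The median of all genes for WT against void was then 0.37, against -0.03 with scaling, and Gbp3 in WT against void reversed to 0.11. With no filter on dim probes there was 1 call for WT against void and 3 for D361E against WT. With slide as a block there was 1 for the C-fragment against void. The causes were not tested. No paired analysis was possible because replicate numbers, titled 1 to 20 in all, pair no groups. Signal near background limits Irf7, Oas2 and Oasl2.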
